A study of Arabidopsis thaliana with 14 samples.

Results

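The endosperms of reciprocal crosses between the Arabidopsis thaliana strains Ler and Cvi were compared by whole-genome bisulfite sequencing. The Ler x Cvi endosperm had a Ler mother and a Cvi father, and the Cvi x Ler endosperm had a Cvi mother and a Ler father. Both were dissected 6 days after pollination, from seeds pooled over many siliques, and no transgene or mutation is given in the labels. The series holds 14 libraries, and each of these crosses gave 1 endosperm library, so a difference between them has no replicate check. The members are the nuclear windows of 300 nt, at steps of 200 nt, that have a value in both libraries. There were 40033 such windows in CG context, out of 43058 with a value in Ler x Cvi against 443027 in Cvi x Ler. In CHG context there were 44316 shared windows and in CHH context 90604, where H is any base but G. Selfed Ler x Ler and Cvi x Cvi endosperms and embryos of the same age served to class the windows, and the Ler x Cvi embryo as a hybrid tissue with 1 maternal and 1 paternal genome. Only nuclear calls on the 5 chromosomes were used for levels.

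Endosperm feeds the growing embryo and carries 2 maternal genomes for 1 paternal genome. In plants CG methylation is copied after replication by MET1, CHG methylation is maintained by CMT3 together with histone H3 lysine 9 methylation, and CHH methylation is placed largely by CMT2 and by the small RNA-directed enzyme DRM2. The DNA glycosylase DEMETER (DME) removes methylation from the maternal genome in the central cell, before fertilisation, at many transposon fragments near genes. Gene bodies carry CG methylation without CHG or CHH methylation.

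The windows below carry the results. Each is printed 5′ to 3′ on the forward strand of TAIR10.1 (RefSeq), the sequence of the strain Col, so Ler and Cvi can differ from it at single bases. CG dinucleotides are in capitals, except in AT2G15700, where CAG, CTG and CCG are. Of all 300-nt windows of the nuclear genome, 98.3% held at least 1 CG on this strand, with a median of 6. For the CHG motifs the share was 98.6%, with a median of 7. The first is the window with the largest excess in Ler x Cvi, in AT3G14205 (chr3:4717601-4717900). The second is the coding part of the window in the F-box gene AT4G27050 (chr4:13577201-13577429), methylated in Cvi alone. The next, in AT1G79170 (chr1:29782401-29782700), is methylated in the embryo of only Ler and loses methylation in its endosperm. The one after is upstream of the clock gene ZTL (chr5:23241001-23241300) and the last is in the pseudogene AT2G15700 (chr2:6841201-6841500).
AT3G14205: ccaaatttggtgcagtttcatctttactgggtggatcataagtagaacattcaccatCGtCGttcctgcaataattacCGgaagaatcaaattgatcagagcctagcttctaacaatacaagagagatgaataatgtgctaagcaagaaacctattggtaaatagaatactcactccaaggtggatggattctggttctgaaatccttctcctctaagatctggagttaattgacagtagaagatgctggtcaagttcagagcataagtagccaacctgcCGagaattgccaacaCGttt
AT4G27050: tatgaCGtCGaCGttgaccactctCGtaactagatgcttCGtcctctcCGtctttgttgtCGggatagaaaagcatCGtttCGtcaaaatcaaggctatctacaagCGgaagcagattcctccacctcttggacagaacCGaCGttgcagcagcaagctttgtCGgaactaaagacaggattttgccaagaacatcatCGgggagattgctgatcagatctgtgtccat
AT1G79170: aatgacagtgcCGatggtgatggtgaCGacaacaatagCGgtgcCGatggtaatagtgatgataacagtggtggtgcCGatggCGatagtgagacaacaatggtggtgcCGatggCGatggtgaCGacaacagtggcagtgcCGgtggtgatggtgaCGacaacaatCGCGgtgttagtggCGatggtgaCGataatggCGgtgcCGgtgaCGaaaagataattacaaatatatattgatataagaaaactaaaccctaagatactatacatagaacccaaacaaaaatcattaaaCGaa
ZTL: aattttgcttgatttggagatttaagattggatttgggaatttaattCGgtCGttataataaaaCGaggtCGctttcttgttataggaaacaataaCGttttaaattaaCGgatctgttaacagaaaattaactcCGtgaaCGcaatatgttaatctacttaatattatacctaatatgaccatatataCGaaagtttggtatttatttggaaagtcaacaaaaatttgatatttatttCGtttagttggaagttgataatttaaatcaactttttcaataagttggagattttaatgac
AT2G15700: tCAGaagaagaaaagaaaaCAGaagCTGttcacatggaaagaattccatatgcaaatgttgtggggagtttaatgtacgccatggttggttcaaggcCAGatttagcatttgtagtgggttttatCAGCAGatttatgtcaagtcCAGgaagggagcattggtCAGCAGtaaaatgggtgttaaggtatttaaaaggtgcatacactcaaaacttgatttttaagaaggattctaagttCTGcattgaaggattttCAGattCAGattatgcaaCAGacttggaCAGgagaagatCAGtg

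The libraries differed in depth, and this limits single windows. The median CG window held 6 calls in Ler x Cvi against 24 in Cvi x Ler. The 1% of CG windows with most calls held 22.3% of all CG calls in Ler x Cvi against 6.57% in Cvi x Ler. Pooled levels therefore lean on a few windows with many calls, and windows with over 10 times the median calls of either library (high-call windows) were also left out in turn. Shared windows were 9.04% of the Cvi x Ler CG windows, and gene bodies made up 54.3% of the shared windows against 64.1% of all Cvi x Ler windows. Chloroplast DNA, which is not methylated, had 0.275% methylated CG calls in Ler x Cvi against 0.227% in Cvi x Ler, 0.224% against 0.198% in CHG, and 0.266% against 0.194% in CHH. The part of this background in the CHH differences was not tested. At 1 Mb blocks compared with the Ler x Ler embryo at shifted positions, a second match at an offset was found in 2 of 121 blocks of Ler x Cvi and 15 of 121 of Cvi x Ler. It was found in 85 of 121 blocks of the Cvi x Ler embryo, which was therefore used for nothing else. A lower minimum of calls per window was used for Ler x Cvi endosperm, which also had fewer windows. These counts are therefore not alike between libraries, and how well a match is found in Ler x Cvi was not tested. Blocks with a second match in the hybrid endosperms can hold displaced calls and were kept in all comparisons. Whether called windows lie in them was not tested.

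Ler x Cvi had less CG methylation, more CHG methylation and more CHH methylation than Cvi x Ler. Over shared windows 22.7% of CG calls were methylated in Ler x Cvi (Wilson 95% interval 22.6 to 22.8) and 25% in Cvi x Ler (24.9 to 25.1). The CG difference was -2.28 percentage points, and over the 5 chromosomes it ranged from -4.11 to 0.815, with chromosome 1 alone above 0. In CHG the levels were 13.6% in Ler x Cvi against 7.32% in Cvi x Ler, beside 10.1% in Ler x Ler against 9.56% in Cvi x Cvi. In CHH they were 4.06% in Ler x Cvi against 2.17% in Cvi x Ler, beside 2.62% in Ler x Ler against 2.27% in Cvi x Cvi. CHG and CHH were higher in Ler x Cvi on each of the 5 chromosomes. The intervals cover counting error only. They are too narrow even for that, because overlapping windows count some calls more than once and cytosines of a read are not independent.

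The CG difference depended on which windows were compared. Over each library's own windows Ler x Cvi was the higher, at 22.7% against 16.2%, a reversal. It was larger near the centromeres. Within 2 Mb of them CG was 37.7% in Ler x Cvi against 52.8% in Cvi x Ler, and farther out it was 12.6% against 13.5%. In pseudogenes, a class that in this annotation includes transposon-derived genes, CG was 48.3% in Ler x Cvi against 63.8% in Cvi x Ler. In protein-coding gene bodies it was 9.88% against 10.2%, a difference of -0.275 points that was positive on 2 of the 5 chromosomes. CHG in pseudogenes was 45.9% in Ler x Cvi against 29.6% in Cvi x Ler. CHH outside genes was 5.78% in Ler x Cvi against 3.10% in Cvi x Ler. Without high-call windows the CHH difference over all windows fell to 1.21 points, at 3.01% against 1.80%. As an unweighted mean of window percentages it was 0.460 points, and more shared CHH windows were lower in Ler x Cvi (27910) than higher (13783). The median shared CHH window held 17 calls in Ler x Cvi against 181 in Cvi x Ler. At low levels the shallower library more often reads 0, so these counts do not give a direction.

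To separate context from strain, windows were classed on the selfed endosperms. A CG or CHG window was methylated when at least 60% of at least 15 calls were methylated, and unmethylated at 10% or less. For CHH the limits were 15% and 3% of at least 50 calls. At the 2374 CG windows methylated in both strains, 67.4% of calls were methylated in Ler x Cvi (67.0 to 67.8) and 82.8% in Cvi x Ler (82.7 to 83.0). The selfed endosperms had 82.1% in Ler x Ler against 71.8% in Cvi x Cvi, which the classes fix to be high. In Ler x Cvi 1816 of these windows were lower than in Cvi x Ler and 519 were higher. Ler x Cvi was below both selfed endosperms in 1301 of the 2374 windows, and Cvi x Ler in 339. The difference of -15.5 points ranged only from -15.9 to -14.7 over the chromosomes. It was -15.6 points in gene bodies, -14.5 in pseudogenes and -16.0 outside genes.

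The same class in CHG gave the opposite order. At 430 CHG windows methylated in both strains, 72.7% of calls were methylated in Ler x Cvi (71.7 to 73.8) and 47.2% in Cvi x Ler (46.7 to 47.7). The selfed endosperms had 67.8% in Ler x Ler against 70.7% in Cvi x Cvi. The class fixes the selfed levels to be high, so a hybrid below both is favoured. Ler x Cvi was below both selfed endosperms in 141 of 430 windows and above both in 227. Cvi x Ler was below both in 398 and above both in 13. Over CHG windows outside genes, with no such choice of windows, the levels were 19.0% in Ler x Cvi against 11.2% in Cvi x Ler, beside 12.6% in Ler x Ler against 14.9% in Cvi x Cvi, so there Ler x Cvi was above both. At the 430 windows methylated in both strains the Ler x Cvi embryo had 77.8%. The difference of 25.5 points between the hybrid endosperms at these 430 windows ranged from 24.1 to 27.1 over the chromosomes. In CHH, at 810 windows methylated in both strains, the levels were 29.8% in Ler x Cvi against 24.6% in Cvi x Ler. Without high-call windows they were 22.5% and 20.4%, so the difference of 5.21 points fell to 2.19.

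**Figure D1:**
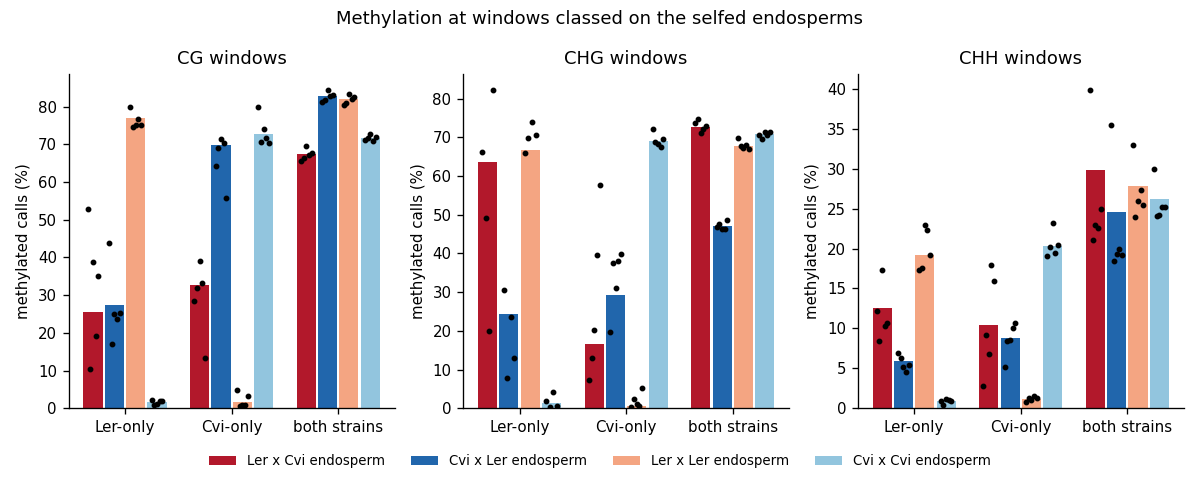
Percent of methylated calls (y axis) in CG, CHG and CHH windows classed on the selfed endosperms as methylated in Ler only, in Cvi only or in both strains. Bars are levels pooled over all windows of a class in the 4 endosperm libraries, and black points are the same levels on single chromosomes. In the class methylated in both strains Ler x Cvi is at 67.4% and Cvi x Ler at 82.8% in CG, whereas in CHG they are at 72.7% and 47.2%.

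In CG and CHG these differences were of like size in shallow and deep windows. At CG windows methylated in both strains the levels were 66.3% in Ler x Cvi against 82.8% in Cvi x Ler where Ler x Cvi had 5 or 6 calls, and 66.0% against 82.2% where it had 50 or more. At CHG windows they were 69.5% against 45.6% with 5 or 6 calls, and 75.3% against 49.98% with 50 or more. In CHH no class of depth had the pooled difference of 5.21 points, and the order turned in 3 of 4. The levels were 18.7% in Ler x Cvi against 18.9% in Cvi x Ler at 5 to 29 calls and 21.8% against 19.4% at 30 to 99. They were 29.95% against 30.2% at 100 or more but under 300 calls and 42.2% against 42.8% at 300 or more. These splits were chosen after the data were seen. At windows unmethylated in both strains the libraries had like levels, with 0.566% in Ler x Cvi against 0.564% in Cvi x Ler over 15909 CG windows, and 0.697% against 0.510% over 22255 CHG windows.

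**Figure D2:**
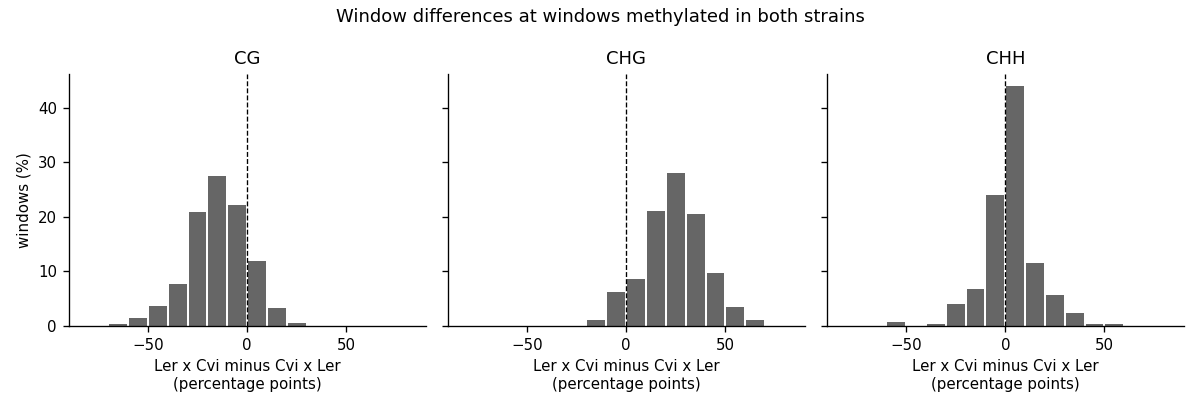
Distribution of the difference Ler x Cvi minus Cvi x Ler in percentage points (x axis), as percent of windows (y axis), at windows methylated in both selfed endosperms covered in each hybrid by 15 calls or more, or 50 in CHH. The CG distribution lies mostly below 0 with a median of -14.7 points, the CHG one mostly above 0 with a median of 24.9, and the CHH one around 0 with a median of 3.06.

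Windows methylated in a single strain were read by which parent brought the methylated genome. Cvi-only CG windows were few, 61, but the crosses were far apart. Of their calls 32.8% were methylated in Ler x Cvi (30.1 to 35.6), where Cvi is the father, and 69.8% in Cvi x Ler (68.7 to 70.8), where Cvi is the mother. Of the 61 windows 53 were lower in Ler x Cvi, and the difference was between -42.3 and -32.4 points on the 5 chromosomes. The Cvi x Cvi endosperm had 72.8% there and the Ler x Cvi embryo 64.5%. At CG windows methylated in both strains the difference was also negative, at -15.5 points. The part of this lower CG level of the Ler x Cvi library in the Cvi-only difference was not tested. The 446 Ler-only CG windows gave 25.7% in Ler x Cvi against 27.5% in Cvi x Ler, with Ler x Cvi higher in 257 windows and lower in 171. That pooled order rested on 15 high-call windows, which held 5047 of the 9399 calls of Ler x Cvi. Without them the levels were 41.2% in Ler x Cvi (39.7 to 42.6), where Ler is the mother, and 30.6% in Cvi x Ler (30.0 to 31.2). In the 319 windows in gene bodies they were 43.1% and 30.2%, with Ler x Cvi higher on 5 of 5 chromosomes.

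In CHG the classes were small. The 20 Ler-only windows had 63.6% in Ler x Cvi against 24.5% in Cvi x Ler, and the 31 Cvi-only windows had 16.7% against 29.3%. Ler x Cvi was also higher by 25.5 points at CHG windows methylated in both strains. The part of this in the Ler-only difference was not tested. Among the Cvi-only windows 14 were higher in Ler x Cvi and 17 lower. In CHH, 108 Ler-only windows had 12.6% in Ler x Cvi against 5.90% in Cvi x Ler, although 55 windows were lower in Ler x Cvi and 47 higher. The 107 Cvi-only windows had 10.4% against 8.84%, and the order turned to 5.82% against 8.20% when every second window was used.

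A position was then computed, 0 at the Cvi x Cvi level and 1 at the Ler x Ler level, from the Ler-only and Cvi-only CG windows together. Ler makes up 0.667 of the genomes in the Ler x Cvi endosperm and 0.333 in Cvi x Ler. Over all 507 windows the position was 0.347 in Ler x Cvi against 0.310 in Cvi x Ler, and 4 of 5 chromosomes had the higher value in Ler x Cvi. Without high-call windows it was 0.541 in Ler x Cvi against 0.364 in Cvi x Ler, and in gene bodies 0.554 and 0.347. In gene bodies the difference was 0.207 and lay between 0.179 and 0.235 on the 5 chromosomes. In both restricted sets Ler x Cvi lay below its genome share of 0.667, and Cvi x Ler lay slightly above its own of 0.333. With windows methylated at 40% and unmethylated at 20% the order was lost, at 0.384 in Ler x Cvi against 0.393 in Cvi x Ler.

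**Figure D3:**
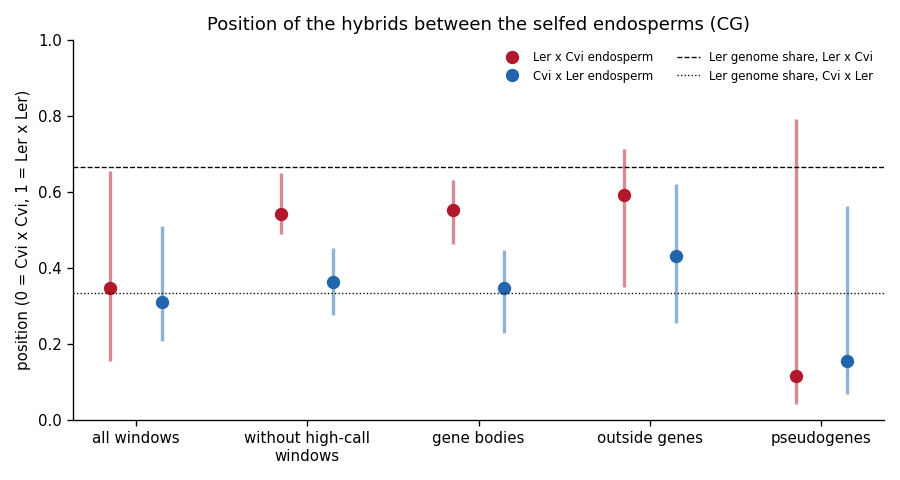
Position of the hybrid endosperms (y axis, 0 at Cvi x Cvi and 1 at Ler x Ler) over Ler-only and Cvi-only CG windows, by set of windows (x axis). Points are pooled values, vertical lines run from the lowest to the highest chromosome, and the horizontal lines mark the Ler share of the genomes in each cross. In gene bodies Ler x Cvi lies at 0.554 and Cvi x Ler at 0.347, while over pseudogenes the chromosomes spread widely.

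The Ler-only and Cvi-only classes give different positions. At Cvi-only windows the position was 0.562 in Ler x Cvi against 0.0431 in Cvi x Ler, and without high-call windows it was 0.637 against 0.163. At Ler-only windows in gene bodies it was 0.551 in Ler x Cvi against 0.378 in Cvi x Ler. Over the 54 Ler-only pseudogene windows the pooled position was 0.0941 in Ler x Cvi against 0.163 in Cvi x Ler, below the Ler genome share in both. On single chromosomes it ran from 0.0412 to 0.791 in Ler x Cvi and from 0.0675 to 0.601 in Cvi x Ler. So neither the low position nor the order held for these windows as a set. The pooled value leans on a few pseudogene windows with many calls. Among these are a window of AT2G07080, with 0.621% of 966 calls methylated in Ler x Cvi and 0.389% of 1287 in Cvi x Ler against 75.0% in Ler x Ler, and a window of AT4G08340, with 1.34% of 596 calls and 0.140% of 712 against 100% in Ler x Ler. The Ler x Cvi embryo had 3.64% and 1.55% at these windows, so both hybrids and the hybrid embryo had nearly no methylated calls there.

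Endosperm loss was examined next. CG windows methylated in only 1 selfed embryo were divided by what happened in the selfed endosperm of that strain. They were called lost where the endosperm was at least 35 points below the embryo, and retained where the drop was under 15 points. The 156 Ler-only lost windows had 13.6% in Ler x Cvi (12.3 to 15.0) and 26.0% in Cvi x Ler (25.1 to 26.9). The Ler x Ler endosperm had 35.1% there and the Ler x Cvi embryo 46.7%. Ler x Cvi was lower in 110 of these windows and higher in 41, and lower on 5 of 5 chromosomes, by 5.47 to 15.6 points. The level was thus higher in the cross with Ler as father, but Ler x Cvi was also the lower by 8.73 points at windows lost in both strains and by 13.9 points at windows retained in both, where both parents carry methylation. The order by parent and this lower CG level of the Ler x Cvi library cannot be told apart here. At Ler-only retained windows the order was the other way without high-call windows, with 41.2% in Ler x Cvi against 30.3% in Cvi x Ler over 154 windows. Over all 163 windows both crosses had 29.2%, and 9 high-call windows held 2208 of the 3727 Ler x Cvi calls there.

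The Cvi-only windows had the mirror order in part. The 18 retained windows had 31.2% in Ler x Cvi against 70.0% in Cvi x Ler, where Cvi is the mother, and 17 of the 18 were lower in Ler x Cvi. At windows retained in both strains Ler x Cvi was also the lower, by 13.9 points. The part of this in the Cvi-only difference was not tested. The 112 lost windows had 24.4% in Ler x Cvi (21.9 to 26.95) and 21.3% in Cvi x Ler (20.3 to 22.3). This difference of 3.08 points was positive on 3 of 5 chromosomes, 56 windows were lower and 45 higher in Ler x Cvi, and it turned to -4.56 points where both hybrids had at least 15 calls. An excess of the size seen with the Cvi mother at retained windows was not seen at lost windows. The Ler x Cvi embryo had 67.1% at the retained and 46.5% at the lost windows.

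**Figure D4:**
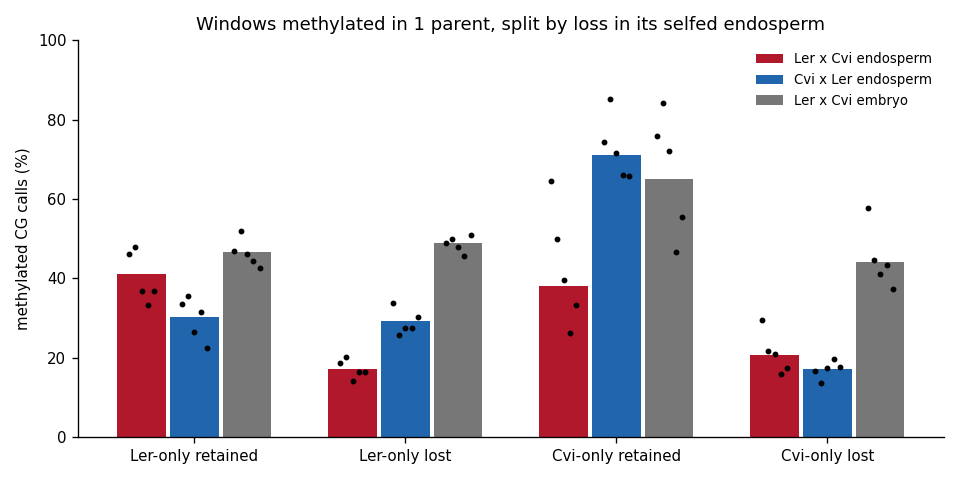
Percent of methylated CG calls (y axis) at windows methylated in the embryo of only Ler or only Cvi, divided by whether the selfed endosperm of that strain retained or lost methylation, without high-call windows. Bars are pooled levels of the Ler x Cvi endosperm, the Cvi x Ler endosperm and the Ler x Cvi embryo, and points are single chromosomes. At Ler-only retained windows Ler x Cvi is at 41.2% and Cvi x Ler at 30.3%, and at Ler-only lost windows they are at 17.3% and 29.4%.

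Single windows varied around these levels. In AT1G79170, an uncharacterised gene whose window overlaps its coding exons over 222 nt, 3.08% of 65 calls were methylated in Ler x Cvi and 27.1% of 133 in Cvi x Ler. The Ler x Ler endosperm had 59.7% there, the Ler x Ler embryo 96.7% and the Cvi x Cvi embryo 0.610%. The cross whose father carries the methylated allele was the higher in this window. AT4G37230, a photosystem II protein (PsbO) family gene lost in Cvi, went the other way, with 16.7% of 30 calls in Ler x Cvi and 37.5% of 176 in Cvi x Ler. The Ler-only lost window of AT1G52905 had 20.0% in Ler x Cvi against 19.9% in Cvi x Ler. At the retained F-box gene AT4G27050, 38.9% of 90 calls were methylated in Ler x Cvi and 78.2% of 1038 in Cvi x Ler, with 75.3% in Cvi x Cvi and 0 of 65 calls in Ler x Ler, which allows up to 4.62%. Leaving out every window within 2 kb of AT4G27050 gave 26.1% and 65.2% over the other 14 Cvi-only retained windows. AT1G27580, an F-box gene methylated in Ler, had 79.2% of 120 calls in Ler x Cvi and 87.9% of 232 in Cvi x Ler.

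Windows demethylated in both selfed endosperms served as a check of the tissue. At 840 CG windows at least 60% methylated in both selfed embryos and at least 35 points lower in both selfed endosperms, Ler x Cvi had 35.1% and Cvi x Ler 43.8%. The selfed endosperms had 38.3% (Ler x Ler) and 32.5% (Cvi x Cvi), and the Ler x Cvi embryo had 88.5%. Both hybrids thus had the low levels of endosperm, and Cvi x Ler was higher than both selfed endosperms. The class fixes the selfed endosperm levels to be low, so a hybrid above both is favoured. At 466 windows that kept their methylation in both selfed endosperms the levels were 68.1% in Ler x Cvi against 82.0% in Cvi x Ler, so Ler x Cvi was lower by 13.9 points there and by 8.73 points at the demethylated windows.

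Single windows were then compared with Fisher's exact test on calls, which compares these 2 libraries and not the crosses. The test takes calls as independent, and cytosines of a read are not, so its p-values are too small. Windows with few calls rest on few cytosines and reads, and neighbouring windows share calls. A window was called at a Benjamini-Hochberg adjusted p under 0.01 and a difference of 35 points or more, or of 10 points or more in CHH. In CG, 36 of 6794 windows were called higher in Ler x Cvi (0.530% of those tested) and 229 lower (3.37%). In CHG 242 of 7327 were called higher (3.30%) and 0 lower. At an unadjusted p under 0.05, 1045 CHG windows were higher and 51 lower by the same test. In CHH 286 of 10673 were higher (2.68%) and 48 lower (0.450%). Of the 36 higher CG windows 24 lay in gene bodies, and of the 229 lower ones 29 did, with 59 in pseudogenes and 135 outside genes. Of the CG windows tested 44.9% lay in gene bodies, 16.7% in pseudogenes and 36.1% outside genes. Of the 242 CHG windows 148 lay in pseudogenes, which held 18.1% of those tested. Of the Cvi-only CG windows tested, 7 of 20 were called lower and 0 higher, and of the Ler-only ones 3 of 100 were called higher and 0 lower. With an unadjusted p under 0.05 these Cvi-only windows numbered 15 lower and 0 higher, and the Ler-only ones 22 higher and 6 lower. Of the windows methylated in both strains, 62 of 1029 were called lower in CG and 22 of 175 higher in CHG.

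The called CG windows higher in Ler x Cvi merged into 31 regions, 20 of them in gene bodies. The largest difference was in AT3G14205, a phosphoinositide phosphatase gene and a candidate for allele-specific imprinting. Its window lies in the gene, with 191 nt of exon and 109 nt of intron. Of its CG calls 94.7% were methylated in Ler x Cvi (19 calls, 75.4 to 99.1) and 0% in Cvi x Ler (16 calls, which allows up to 18.8%), with adjusted p = 3.65e-07 by Fisher's exact test. The Ler x Ler endosperm had 83.3% of 6 calls and the Cvi x Cvi endosperm 0% of 30, and the Ler x Cvi embryo had 25.8%. AT5G40520, annotated as a DNA double-strand break repair gene, had 89.5% of 19 calls in Ler x Cvi and 0% of 29 in Cvi x Ler (Fisher's exact test, adjusted p = 5.95e-09), with 28.6% in Ler x Ler against 15.6% in Cvi x Cvi. KUP6, a potassium transporter gene, had 68.8% of 16 calls in Ler x Cvi and 0% of 30 in Cvi x Ler, with 82.4% in Ler x Ler against 38.5% in Cvi x Cvi. The nucleoporin gene NUP1 had 55.0% of 20 calls in Ler x Cvi and 0% of 22 in Cvi x Ler, with 100% of 6 calls in Ler x Ler and 0% of 81 in Cvi x Cvi. These 4 windows were methylated in Ler x Cvi and had no methylated call in Cvi x Ler.

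The remaining 6 of the 10 largest were a region 1217 nt upstream of the transcription factor gene MYB9 and windows in AT1G79570, AT4G23440, AT1G71150, AT5G09840 and ftsh4. Among them AT4G23440, a TIR-NBS disease resistance gene, had most Ler x Cvi calls, with 74.4% of 39 in Ler x Cvi and 20.5% of 73 in Cvi x Ler (Fisher's exact test, adjusted p = 2.82e-06). It had 47.2% in Ler x Ler against 3.59% in Cvi x Cvi. AT1G71150 had 56.2% of 16 calls in Ler x Cvi and 2.56% of 39 in Cvi x Ler, with 71.4% in Ler x Ler and 0% of 80 in Cvi x Cvi. Not each followed the selfed strains. At AT5G09840 Ler x Cvi had 60.0% of 30 calls and Cvi x Ler 6.56% of 61, but Ler x Ler had 0% of 5 and Cvi x Cvi 0.917% of 109. Upstream of MYB9 Ler x Cvi had 73.3% of 15 calls and Cvi x Ler 11.1% of 36, with 19.8% in Ler x Ler against 31.3% in Cvi x Cvi.

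The windows lower in Ler x Cvi formed 186 regions, of which 24 lay in gene bodies and 52 in pseudogenes. In the region near the pseudogene AT3G31422 17.4% of 23 calls were methylated in Ler x Cvi and 100% of 21 in Cvi x Ler, with 40% of 40 in Cvi x Cvi. At ZTL, which encodes a photoreceptor of the circadian clock, the window 20 nt upstream of the gene had 2.70% of 37 calls in Ler x Cvi and 73.2% of 41 in Cvi x Ler (Fisher's exact test, adjusted p = 4.35e-09). It had 31.4% in Ler x Ler against 47.2% in Cvi x Cvi, and 88.5% in the Ler x Cvi embryo. Upstream of the homeobox gene HAT14 the levels were 16.7% of 30 calls in Ler x Cvi and 87.3% of 71 in Cvi x Ler, with 85.2% in Ler x Ler against 43.9% in Cvi x Cvi. At 124 nt downstream of the non-coding RNA gene AT2G07075 they were 6.67% of 15 and 78.0% of 59, with 40% in Ler x Ler against 53.3% in Cvi x Cvi. At ZTL, HAT14 and AT2G07075 Ler x Cvi was below both selfed endosperms and Cvi x Ler above both.

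AT5G38344, a TIR domain gene, was methylated in Cvi alone, and the level was higher with Cvi as the mother. It had 13.3% of 15 calls in Ler x Cvi and 85.4% of 41 in Cvi x Ler, with 0% of 36 in Ler x Ler against 73.4% in Cvi x Cvi. The part of the lower CG level of the Ler x Cvi library in this difference was not tested. The windows at AT4G09467, AT4G05087 and AT3G26440 had no call in Cvi x Cvi. Their levels were 6.45%, 10.5% and 19.2% in Ler x Cvi and 85.0%, 88.7% and 92.9% in Cvi x Ler. In Ler x Ler they were 40.1%, 32.8% and 27.4%. The pseudogene AT3G30695 had 23.8% of 21 calls in Ler x Cvi and 97.3% of 37 in Cvi x Ler. AT2G18360, an alpha/beta hydrolase gene, had 23.5% of 17 and 94.1% of 17.

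In CHG the called windows merged into 196 regions, and 126 of these lay in pseudogenes. The 5 largest all did. AT2G15700 had 100% of 15 calls methylated in Ler x Cvi and 14.3% of 21 in Cvi x Ler, with 41.1% in Ler x Ler against 62.0% in Cvi x Cvi (Fisher's exact test, adjusted p = 3.58e-05). AT3G33151 had 87.5% of 16 calls in Ler x Cvi and 15.9% of 107 in Cvi x Ler, with 29.4% in Ler x Ler against 44.4% in Cvi x Cvi. AT4G04520 had 83.3% of 18 and 12.9% of 31, with 90% in Ler x Ler against 72.9% in Cvi x Cvi. AT3G31990 had 94.7% of 19 and 18.8% of 32, and AT5G56747 80% of 15 and 0% of 20. In the first 3 of these Cvi x Ler was below both selfed endosperms.

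In CHH, 231 regions were higher in Ler x Cvi and 43 lower. The window with the largest excess, overlapping the DUF577 gene AT5G37430, had 87.0% of 92 calls in Ler x Cvi and 28.8% of 382 in Cvi x Ler (Fisher's exact test, adjusted p = 1.58e-21). The Ler x Ler endosperm had 1.72% there and Cvi x Cvi 62.4%, so the level was higher with Cvi as the father. The part of the higher CHH level of the Ler x Cvi library in this difference was not tested. In embryos the window had 31.4% in Ler x Ler, 70.2% in Cvi x Cvi and 10.5% in Ler x Cvi. A window 727 nt upstream of AT1G40390 had 66.2% of 65 calls in Ler x Cvi and 10.0% of 80 in Cvi x Ler, with 33.3% in Ler x Ler against 3.08% in Cvi x Cvi. The window 1319 nt upstream of the pseudogene AT2G13860 had 59.8% of 97 and 15.9% of 138, with 13.2% in Ler x Ler against 28.8% in Cvi x Cvi, so there Ler x Cvi was above both selfed endosperms. A window 252 nt downstream of the MADS-box gene AGL30 had 68.6% of 70 calls in Ler x Cvi and 12.1% of 190 in Cvi x Ler, with 19.2% in Ler x Ler against 60.2% in Cvi x Cvi. Near the cytochrome P450 gene CYP71A16 the levels were 51.5% of 66 and 1.47% of 272, with 34.2% in Ler x Ler against 6.02% in Cvi x Cvi. In the opposite direction, the region near the pseudogene AT4G06704 had 2.00% of 50 calls in Ler x Cvi and 67.1% of 79 in Cvi x Ler, with 66.8% in Ler x Ler against 7.23% in Cvi x Cvi. Here the level was higher with Ler as the father. Upstream of the pseudogene AT1G40113 by 110 nt, 23.3% of 86 calls were methylated in Ler x Cvi and 74.6% of 497 in Cvi x Ler, with 72.4% in Ler x Ler against 81.3% in Cvi x Cvi. In the pseudogene AT3G29710 the levels were 5.00% of 80 and 42.1% of 387, with 8.59% in Ler x Ler against 28.6% in Cvi x Cvi. A window on chromosome 5 with no gene within 2 kb had 14.4% of 111 calls in Ler x Cvi and 51.5% of 338 in Cvi x Ler, with 46.1% in Ler x Ler against 74.6% in Cvi x Cvi. In these 3 windows Ler x Cvi was below both selfed endosperms. Near AT1G20740 0 of 52 calls were methylated in Ler x Cvi (up to 5.77%) and 35% of 691 in Cvi x Ler.

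Gene bodies were compared over their pooled CG calls, taking every second window so that no call counted more than once. Of 1329 protein-coding genes with at least 20 calls in both libraries, 16 were called higher in Ler x Cvi (1.20%) and 15 lower (1.13%), at an adjusted p under 0.01 and at least 20 points. A gene had a median of 26 calls in Ler x Cvi against 95 in Cvi x Ler. The 16 higher genes included AT3G14205, with 75.0% of 24 calls in Ler x Cvi and 4.17% of 48 in Cvi x Ler, and AT5G40520, with 72.4% of 29 and 12.9% of 93. The mitochondrial FtsH protease gene ftsh10 had 42.9% of 21 calls in Ler x Cvi and 0% of 77 in Cvi x Ler (up to 3.90%), with 50.0% of 10 calls in Ler x Ler against 17.0% in Cvi x Cvi. EDM2, which encodes a chromatin regulator of disease resistance, had 42.9% of 21 and 6.56% of 183, with 36.8% in Ler x Ler against 5.03% in Cvi x Cvi. The Rab-GAP gene AT2G43490 had 40.7% of 27 and 0% of 27, with 40% of 10 calls in Ler x Ler. The folate transporter gene FOLT1, with most calls of the 16, had 39.3% of 107 and 15.2% of 244, with 43.6% in Ler x Ler against 2.01% in Cvi x Cvi. In these genes the selfed Ler endosperm was the more methylated parent. In AT5G08520, a homeodomain-like gene, and in AT5G09840, AT3G53590 and KEA1, a potassium efflux antiporter gene, few or no calls were methylated in Ler x Ler (0 of 96, 0 of 5, 3 of 55 and 0 of 17, and the 0 of 5 allows up to 60% and the 0 of 17 up to 17.6%), while Ler x Cvi had 54.0%, 60.0%, 45.0% and 34.6% and Cvi x Ler 13.0%, 6.56%, 0% and 0%. The bZIP transcription factor gene BZIP60 had 24.0% of 25 calls in Ler x Cvi and 0% of 106 in Cvi x Ler, with 1.63% in Ler x Ler against 9.52% in Cvi x Cvi.

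Among the 15 gene bodies lower in Ler x Cvi, AT4G27050 had most calls in Cvi x Ler, with 42.2% of 567 in Ler x Cvi and 75.1% of 3216 in Cvi x Ler (Fisher's exact test, adjusted p = 1.51e-48), with 18.8% in Ler x Ler against 70.4% in Cvi x Cvi. The glutamate receptor gene GLR2.2 had 23.5% of 34 calls in Ler x Cvi and 71.2% of 553 in Cvi x Ler, with 0% of 79 in Ler x Ler against 69.7% in Cvi x Cvi. TBL20, a gene of the trichome birefringence-like family, had 26.7% of 45 and 59.3% of 204, with 0% of 108 in Ler x Ler against 60.3% in Cvi x Cvi. In these 3 genes Cvi is the methylated parent, and the level was higher with Cvi as the mother. The part of the lower CG level of the Ler x Cvi library in these differences was not tested. AT3G17030, a nucleic acid-binding protein gene, had 0 of 39 calls in Ler x Cvi (up to 7.69%) and 66.0% of 53 in Cvi x Ler, with 20.0% of 5 calls in Ler x Ler and 0% of 116 in Cvi x Cvi. The translation initiation factor gene AT4G11160 had 40.6% of 32 and 87.5% of 40, with 80% of 5 calls in Ler x Ler against 32.4% in Cvi x Cvi. AT3G26440 and AT3G26450 overlap and share the same window, so they are a single locus although each is counted among the 15, with 19.2% of 26 and 92.9% of 28. AT1G05035 had 28.0% of 25 and 85.7% of 63, with 71.4% in Ler x Ler against 76.9% in Cvi x Cvi. The cytochrome P450 gene CYP81D6 had 6.25% of 48 and 40.7% of 86, with 36.3% in Ler x Ler against 26.1% in Cvi x Cvi. Several of the others rested on a single window with many calls, such as the F-box gene AT5G10340, with 34.1% of 663 calls in Ler x Cvi and 62.6% of 1322 in Cvi x Ler, and MEE38, with 13.2% of 205 and 35.3% of 468. AT5G10340 had 40.8% in Ler x Ler against 7.69% of 26 calls in Cvi x Cvi, and MEE38 42.5% against 18.9%. PIE1, which encodes a chromatin remodeller of the SNF2 family, had 4.76% of 42 and 32.1% of 109, with 15.2% in Ler x Ler against 32.4% in Cvi x Cvi. In AT3G17030, AT4G11160, CYP81D6, AT5G10340 and MEE38 Ler x Ler was the more methylated selfed endosperm, yet the level was lower with Ler as the mother. In AT1G05035 and PIE1 Cvi x Cvi was the more methylated.

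**Figure D5:**
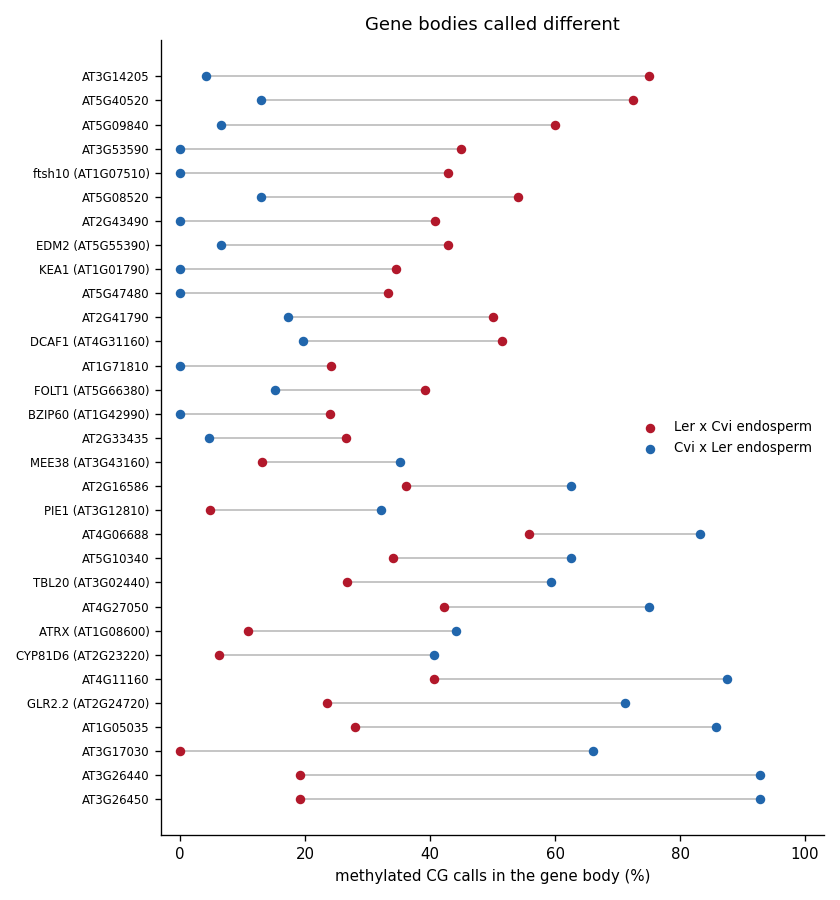
Percent of methylated CG calls (x axis) in the 31 protein-coding gene bodies called different, 1 row for each gene. Red points are the Ler x Cvi endosperm and blue points the Cvi x Ler endosperm, joined by a line. The 16 genes at the top are higher in Ler x Cvi, led by AT3G14205 at 75.0% against 4.17%, and the 15 below them are lower in Ler x Cvi.

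Genes of known roles in imprinting and methylation were read at the shared window, in the gene or within 2 kb, where the selfed endosperms differed most. Of 12 candidates for allele-specific imprinting 11 had such a window. Of these 2 were higher in Ler x Cvi, 1 was lower and 8 were equal, with a median difference of 0, as over all 40033 shared CG windows. Of all these windows 13.7% were higher in Ler x Cvi, 29.4% lower and 56.9% equal. These shares depend on depth, as the median shared CG window held 6 calls in Ler x Cvi against 36 in Cvi x Ler. Listed windows, here and below, were picked by their selfed difference and all shared windows were not, so the shares are not strictly alike. The 8 equal windows had 0 methylated calls in both hybrids, from 5 or 6 calls in Ler x Cvi, which allows up to 60% or 50%. Apart from the window of ATRX, with 66.7% of 12 calls in Ler x Ler, none of them was above 3.125% in either selfed endosperm. Such windows could hardly show a difference by parent. The study picked these candidates from RNA of crosses among the same strains. Besides AT3G14205, the higher window was at AT4G00750, a methyltransferase-like gene, with 63.6% of 11 calls in Ler x Cvi (35.4 to 84.8) and 32.0% of 50 in Cvi x Ler, against 80% of 5 calls in Ler x Ler and 0% of 42 in Cvi x Cvi. ATRX, which encodes a chromatin remodeller, had 2 called windows elsewhere in the gene, with 13.8% of 29 calls in Ler x Cvi and 70.0% of 60 in Cvi x Ler (Fisher's exact test, adjusted p = 3.29e-05) and 17.2% of 29 against 71.3% of 80 (Fisher's exact test, adjusted p = 2.53e-05). Its selfed endosperms had 37.2% and 48.5% in Ler x Ler and 35% and 32.5% in Cvi x Cvi. Over its whole gene body ATRX had 10.9% of 46 calls in Ler x Cvi and 44.1% of 111 in Cvi x Ler.

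Of 18 other imprinted genes 13 had a shared window, 2 higher in Ler x Cvi, 5 lower and 6 equal, where all windows were 13.7% higher, 29.4% lower and 56.9% equal. The 6 equal ones had 0 methylated calls from 5 to 10 calls in Ler x Cvi. None of these genes had a called window among the 3 that could be tested. Of all tested CG windows 0.530% were called higher and 3.37% lower, so 3 genes are too few to read a share. The window upstream of B160, by 322 nt, was methylated in Ler alone and had 0% of 15 calls in Ler x Cvi (up to 20.0%) and 30.6% of 111 in Cvi x Ler, with 55.6% in Ler x Ler against 1.68% in Cvi x Cvi. In the other direction, 1137 nt downstream of the homeobox gene FWA Ler x Cvi had 60% of 5 calls (23.1 to 88.2) and Cvi x Ler 0% of 21, with 19.2% in Ler x Ler and 0% of 34 in Cvi x Cvi. Over all 9 shared windows in or near FWA this order turned, with 10.2% of 59 calls in Ler x Cvi and 12.7% of 307 in Cvi x Ler. Near the homeobox gene HDG9 the levels were 41.7% of 12 calls in Ler x Cvi (19.3 to 68.0) and 68.4% of 95 in Cvi x Ler. Near MEA, a Polycomb gene expressed from the maternal allele, they were 50.0% of 10 calls (23.7 to 76.3) and 62.5% of 32. Of 10 type I MADS-box genes 6 had a window, 3 higher, 2 lower and 1 equal, beside the 13.7%, 29.4% and 56.9% of all windows. Near AGL61, a gene needed in the central cell, Ler x Cvi had 50.0% of 10 calls (23.7 to 76.3) and Cvi x Ler 6.67% of 30, with 0% of 22 in Ler x Ler against 21.3% in Cvi x Cvi. Near PHE1 the 5 calls of Ler x Cvi gave 20.0% (3.62 to 62.4) against 32.0% of 25.

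Of 11 genes of the methylation and demethylation machinery 7 had a window, with 2 higher, 2 lower and 3 equal, beside the 13.7%, 29.4% and 56.9% of all windows. In DME itself Ler x Cvi had 80% of 5 calls (37.6 to 96.4) and Cvi x Ler 8.11% of 37, with 88.9% in Ler x Ler against 28.2% in Cvi x Cvi. Over all 9 shared windows in or near DME both levels were low, at 9.72% of 72 calls and 1.92% of 520. DML1, also called ROS1, the demethylase of vegetative tissues, had 0% of 20 calls (up to 15.0%) and 22.9% of 70. The window 160 nt upstream of NRPD1B, which encodes the largest subunit of RNA polymerase V, was the single called window of this list, in 1 of the 5 genes with a tested window, where 3.37% of all tested windows were called lower. It had 28.1% of 32 calls in Ler x Cvi and 71.4% of 91 in Cvi x Ler (Fisher's exact test, adjusted p = 0.000891), with 35.2% in Ler x Ler, 32.0% in Cvi x Cvi and 94.0% in the Ler x Cvi embryo. In IBM1, which protects genes from CHG methylation, the levels were 33.3% of 15 calls (15.2 to 58.3) and 14.8% of 54.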

How the data were processed

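The 14 libraries of the series were made by bisulfite sequencing, and the 2 hybrid endosperms were compared here. The authors, as their methods state, filtered reads, mapped hybrid reads with Bismark first to a Ler genome and then, where unmapped, to TAIR10 with Cvi substitutions, converted Ler positions to TAIR10 and removed redundant reads. Tool versions are not given in the sources used here. The deposited weighted files hold counts of unmethylated and methylated calls per window of 300 nt (steps of 200 nt, cytosines with at least 5 reads). The deposited window mean files hold a percent per window and served as an alternative. A read placed by the first mapping step is not mapped again, so mapping can favour an allele, and this was not tested.

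Levels are pooled percentages of calls with Wilson 95% intervals, and the limit for 0 methylated calls is 3 calls of the total. Fisher's exact test was run per window with at least 15 calls (CHH 50) and 3 reference cytosines of the context (CHH 10) in TAIR10.1, a stand-in for the informative cytosines the study required. Window calls and gene body calls were adjusted by Benjamini-Hochberg over all tested. The tests were also run on simulated data in which calls were drawn independently. This cannot show how they behave where cytosines of a read are not independent. Windows were assigned to gene body, pseudogene, non-coding RNA gene or outside genes, in that order, with RefSeq annotation, and no transposon annotation was used. Python 3.11.15, pandas 2.3.3, numpy 2.4.6 and SciPy 1.17.1 were used, and matplotlib 3.10.9 for figures. The text names the called regions with the largest differences (10 in CG and 5 in CHG and CHH in each direction), the called gene bodies with the largest differences, the retained and lost windows with most calls, and listed genes. Windows and genes with most calls among those called, and BZIP60, KEA1, TBL20, MEE38, PIE1, FOLT1 and AT5G10340, were picked after their values were seen. Members and gene lists were chosen with earlier results of these data known. The result at 1 window is not reported here.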

Additional observations from a re-analysis of the deposited data

How the results depend on the processing

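No paired analysis was possible because each cross gave 1 library. Leaving out a replicate was likewise not possible. Of 207 alternatives, 68 left a value within its interval or a count within 1.5 times, 124 moved it and 15 turned its direction. The CG excess of Cvi x Ler at windows methylated in both strains, its CHG deficit there, and the Cvi-only CG difference kept their direction in each alternative run. Depth limits single windows, since the median CG window held 6 calls in Ler x Cvi. The cause of the shifts was not tested. Differences are Ler x Cvi minus Cvi x Ler in points, class names alone stand for the windows of that class, and counts are called windows or genes. The splits by calls in Ler x Cvi, by gene bodies and around AT4G27050 were chosen after the data were seen. With the setting "unweighted mean of window percentages" the values were CG -3.53, CHG 3.71, CHH 0.46, Ler-only CG 7.97 (turned), Cvi-only CG -28.4, both CG -14.7, both CHH 2.57, position difference 0.14, Ler-only retained 11.002 and Cvi-only retained -28.5. With the setting "every second window" the values were CG -2.07, CHG 6.45, CHH 1.86, both CHG 27.8, Cvi-only CHH -2.38 (turned), both CHH 4.07, Ler-only retained 3.52, calls CG higher 19, calls CG lower 125, calls CHG higher 128, calls CHH higher 135 and calls CHH lower 20. With the setting "15 calls or more in each hybrid, 50 in CHH" the values were CG -8.09, CHG 5.98, CHH 1.35, Ler-only CG -4.6, both CHH 2.53, Ler-only retained -1.78 (turned), Ler-only lost -10.4 and Cvi-only lost -4.56 (turned). With the setting "windows over 2 Mb from the centromere only" the values were CG -0.89, CHG 2.09, CHH 0.54, Ler-only CG 11.5 (turned), both CG -14.9, Cvi-only CHH -1.32 (turned), both CHH 4.47, position difference 0.199, Ler-only retained 14.02, calls CG lower 86, calls CHG higher 51, calls CHH higher 75 and calls CHH lower 8. With the setting "windows with at most 10 times the median calls" the values were CG -1.57, CHG 6.14, CHH 1.21, Ler-only CG 10.6 (turned), both CG -14.4, both CHH 2.19, position difference 0.177, Ler-only retained 10.96 and Cvi-only retained -33.1. With the setting "window mean files" the values were CG -3.56, CHG 3.72, CHH 0.452, Ler-only CG 7.93 (turned), Cvi-only CG -27.2, both CG -14.5, both CHH 2.83, position difference 0.138, Ler-only retained 10.8 and Cvi-only retained -26.3. With the setting "own windows of each library" the values were CG 6.49 (turned), CHG 9.61 and CHH 2.64. With the setting "classes at 40% and 20% (CHH 10% and 5%)" the values were Ler-only CG -4.02, Cvi-only CG -25.7, both CG -17.2, Cvi-only CHG 3.84 (turned), both CHG 23.3, both CHH 4.58 and position difference -0.00894 (turned). With the setting "classes at 80% and 5% (CHH 25% and 2%)" the values were Ler-only CG 7.00 (turned), Cvi-only CG -29.7, both CG -13.8, both CHH 2.09 and position difference 0.101. With the setting "gene bodies only" the values were Ler-only CG 12.9 (turned), Cvi-only CG -41.1, position difference 0.207, Ler-only retained 13.4 and Ler-only lost -7.51. With the setting "classes from selfed embryos" the values were Cvi-only CG -23.8, both CHG 24.1, both CHH 6.81 and position difference 0.068. With the setting "methylated at 40%, unmethylated at 20%" the values were Ler-only retained -3.94 (turned). With the setting "loss of at least 25 points" the values were Ler-only lost -9.03 and Cvi-only lost -2.02 (turned). With the setting "10 calls or more, 30 in CHH" the values were calls CG higher 66 and calls CHG lower 1. With the setting "30 calls or more, 100 in CHH" the values were calls CG higher 6, calls CG lower 81, calls CHG higher 102, calls CHH higher 115 and calls CHH lower 22. With the setting "20 points (CG, CHG) or 5 points (CHH)" the values were calls CG lower 432 and calls CHG lower 1. With the setting "at least 40 calls" the values were gene bodies higher 3 and gene bodies lower 9. With the setting "35 points" the values were gene bodies higher 8 and gene bodies lower 6.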
